A study of Rattus norvegicus with 13 samples.

Results

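The 9 genes used as marks of mesangial cells were followed across all 13 arrays of a rat glomerulus study. The genes were chosen by name as Thy1, Itga8, Cspg4, Pdgfrb, Gucy1a1, Gucy1b1, Agtr1a, Nt5e and Igfbp5, out of 10411 genes with a probe set of their own. Of the 15923 probe sets on the array, 15 carried one of these 9 symbols alone. A probe set is a group of short probes designed from 1 sequence record, and the probes may match more than 1 transcript. Its value here is the MAS5 signal, a brightness in intensity units. The study measured RNA of kidney glomeruli, the capillary tufts that filter blood, from untreated rats aged 18 weeks on a regular diet, and compared ways of collecting the glomeruli.

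The LCM800 group (n = 5) and the LCM20 group (n = 4) hold glomeruli cut out of frozen kidney by laser capture microdissection, with 2 rounds of RNA amplification. Their protocol names about 800 glomerular cross-sections of 10 µm, also for LCM20, and what the 20 in that title stands for is not stated. The sieved group (n = 4, titled iron) holds glomeruli of a kidney perfused with iron oxide, collected by sieve and magnet to a stated purity over 99%, with no amplification named in its labels. Kidneys came in pairs, 1 perfused and 1 clamped. Every sample is labelled untreated, although the extraction text also mentions rats given anti-Thy1.1, and the sample descriptions speak of embryos, which no other label bears out. Capture, perfusion and amplification differ together between the laser-captured and sieved groups, so their effects cannot be told apart. In RNA from whole glomeruli, fewer mesangial cells and less RNA per cell cannot be told apart either. Samples are titled biological replicates, and nothing says which came from the same rat.

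Mesangial cells are contractile, pericyte-like cells that hold the capillary loops of the glomerulus together. They are recruited by platelet-derived growth factor from the endothelium, contract in response to angiotensin II, and relax when nitric oxide raises cyclic GMP. In the rat they carry Thy1 on their surface, and antibody against it destroys them in the classical anti-Thy1 model of glomerulonephritis.

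RefSeq promoter windows of GRCr8, from 250 bases before to 50 bases after the start of the gene, were at hand for 7 of the 9 members. The windows of Gucy1a1, Gucy1b1 and Agtr1a are shown because 1 probe set of each gave the 3 largest rises among the members in LCM20 glomeruli, a choice made after those values were seen. Gucy1a1 lies on the minus strand with its window at chr2:169779574-169779873, and Gucy1b1 on the same strand with its window at chr2:169696938-169697237. No other protein-coding gene is annotated between them. The window of Agtr1a is at chr17:34435383-34435682, also on the minus strand. Each window is printed 5′ to 3′ on the strand of the gene, with matches to 3 common promoter motifs, on either strand, in capitals. These are the TATA box, TATAAA, the CCAAT box, spelled as its name, and the GC box, GGGCGG.
Gucy1a1: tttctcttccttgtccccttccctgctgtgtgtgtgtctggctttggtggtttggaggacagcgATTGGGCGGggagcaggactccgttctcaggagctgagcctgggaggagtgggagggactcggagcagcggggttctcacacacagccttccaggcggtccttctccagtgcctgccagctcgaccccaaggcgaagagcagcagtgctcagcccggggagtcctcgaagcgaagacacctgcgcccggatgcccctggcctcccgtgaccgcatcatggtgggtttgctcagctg
Gucy1b1: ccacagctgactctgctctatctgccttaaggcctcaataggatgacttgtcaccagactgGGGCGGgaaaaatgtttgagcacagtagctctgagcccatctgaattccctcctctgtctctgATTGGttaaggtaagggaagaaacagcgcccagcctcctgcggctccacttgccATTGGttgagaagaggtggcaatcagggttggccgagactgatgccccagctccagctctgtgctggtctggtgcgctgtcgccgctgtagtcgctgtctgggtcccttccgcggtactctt
Agtr1a: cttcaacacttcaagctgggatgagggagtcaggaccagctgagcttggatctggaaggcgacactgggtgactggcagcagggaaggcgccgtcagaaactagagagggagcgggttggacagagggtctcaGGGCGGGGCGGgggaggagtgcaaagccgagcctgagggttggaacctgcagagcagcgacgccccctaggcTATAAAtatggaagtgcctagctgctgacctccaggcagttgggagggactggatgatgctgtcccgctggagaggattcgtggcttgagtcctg
In the Gucy1a1 window a CCAAT box on the other strand and a GC box overlap in a single run. The Gucy1b1 window holds 1 GC box and 2 CCAAT boxes on the other strand, and the Agtr1a window holds 1 TATA box and 2 overlapping GC boxes. Over 33469 such windows in the rat annotation, 14.2% hold a TATA box, 37.5% a CCAAT box and 33.1% a GC box. These matches describe letters only.

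Set against sieved glomeruli, the laser-captured ones had more Cspg4 signal and less Nt5e signal, in both laser-captured groups. One probe set of Gucy1a1 rose and one of Igfbp5 fell in both groups, while another of each was not called. Itga8 and one probe set of Thy1 rose in LCM800, while one probe set of Gucy1b1 rose in LCM20. Of the Agtr1a probe sets, one rose in LCM20 and the other, tested only with no filter on low values, fell in both groups. Pdgfrb was not called in either comparison. Changes here are differences of mean log2(signal + 65.3) ± SE, tested with limma over 11106 probe sets and adjusted by Benjamini-Hochberg. A call is an adjusted p under 0.05. The added 65.3 is a pseudocount that makes changes of dim probe sets smaller than their signal ratios. Of the 15 member probe sets, 13 passed the filter on low values, a mean log2 of at least 7.62 over all arrays. Cspg4, Itga8 and Gucy1b1 1374389_at had sieved means below that (7.27, 7.55 and 7.18) and passed through their laser-captured values. Agtr1a 1369291_at, at 8.996 in sieved glomeruli, was removed through its low laser-captured values. Counts and medians of the 13 therefore lean towards rises and are given as description.

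In LCM800 against sieved, 4 of these 13 probe sets were higher and 2 were lower, beside 31.8% higher and 20.1% lower of all probe sets tested. In LCM20 against sieved, the counts were again 4 higher and 2 lower, beside 26.2% and 19.2% of all. The median change of the 13 was 0.41 in LCM800 and 0.30 in LCM20, beside 0.22 and 0.17 over all probe sets. Both comparisons use the same 4 sieved arrays. Setting the medians of the arrays equal lowered the LCM800 median over all probe sets to 0.11. Between LCM20 and LCM800, none of the 13 was called, beside 0.0720% higher and 0.0810% lower of all probe sets, and 1952 of all had an unadjusted p under 0.05.

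Some arrays stand apart, which bears on most of the values that follow. Sieved replicate 3 correlated with the other sieved arrays at r of 0.873 to 0.897 over probe sets, against 0.964 to 0.984 among those others. On it 11 of the 15 member probe sets had their highest sieved signal and 3 their lowest, where 36.3% and 39.7% of all tested probe sets did. Its mean log2 was also the highest of the sieved arrays over 15 podocyte markers, at 11.2 against 10.0 to 10.4, and over 15 glomerular endothelial markers, at 10.4 against 9.23 to 9.57. Over 26 proximal tubule markers it was the lowest, at 11.5 against 12.5 to 12.6. Without this array 8 of the 13 tested probe sets, of 6 genes, were higher in LCM800, beside 29.8% of all, and 7, of 5 genes, in LCM20, beside 25.1%. The lower probe sets stayed at 2 in each, beside 19.6% and 19.1%. Within LCM800, replicates 4 and 5 correlated with replicates 1 to 3 at 0.718 to 0.812, against 0.893 to 0.937 within these sets. Replicates 4 and 5 lay above replicates 1 to 3 in 4 member probe sets and below them in 9, beside 24.8% and 28% of all tested.

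**Figure D1:**
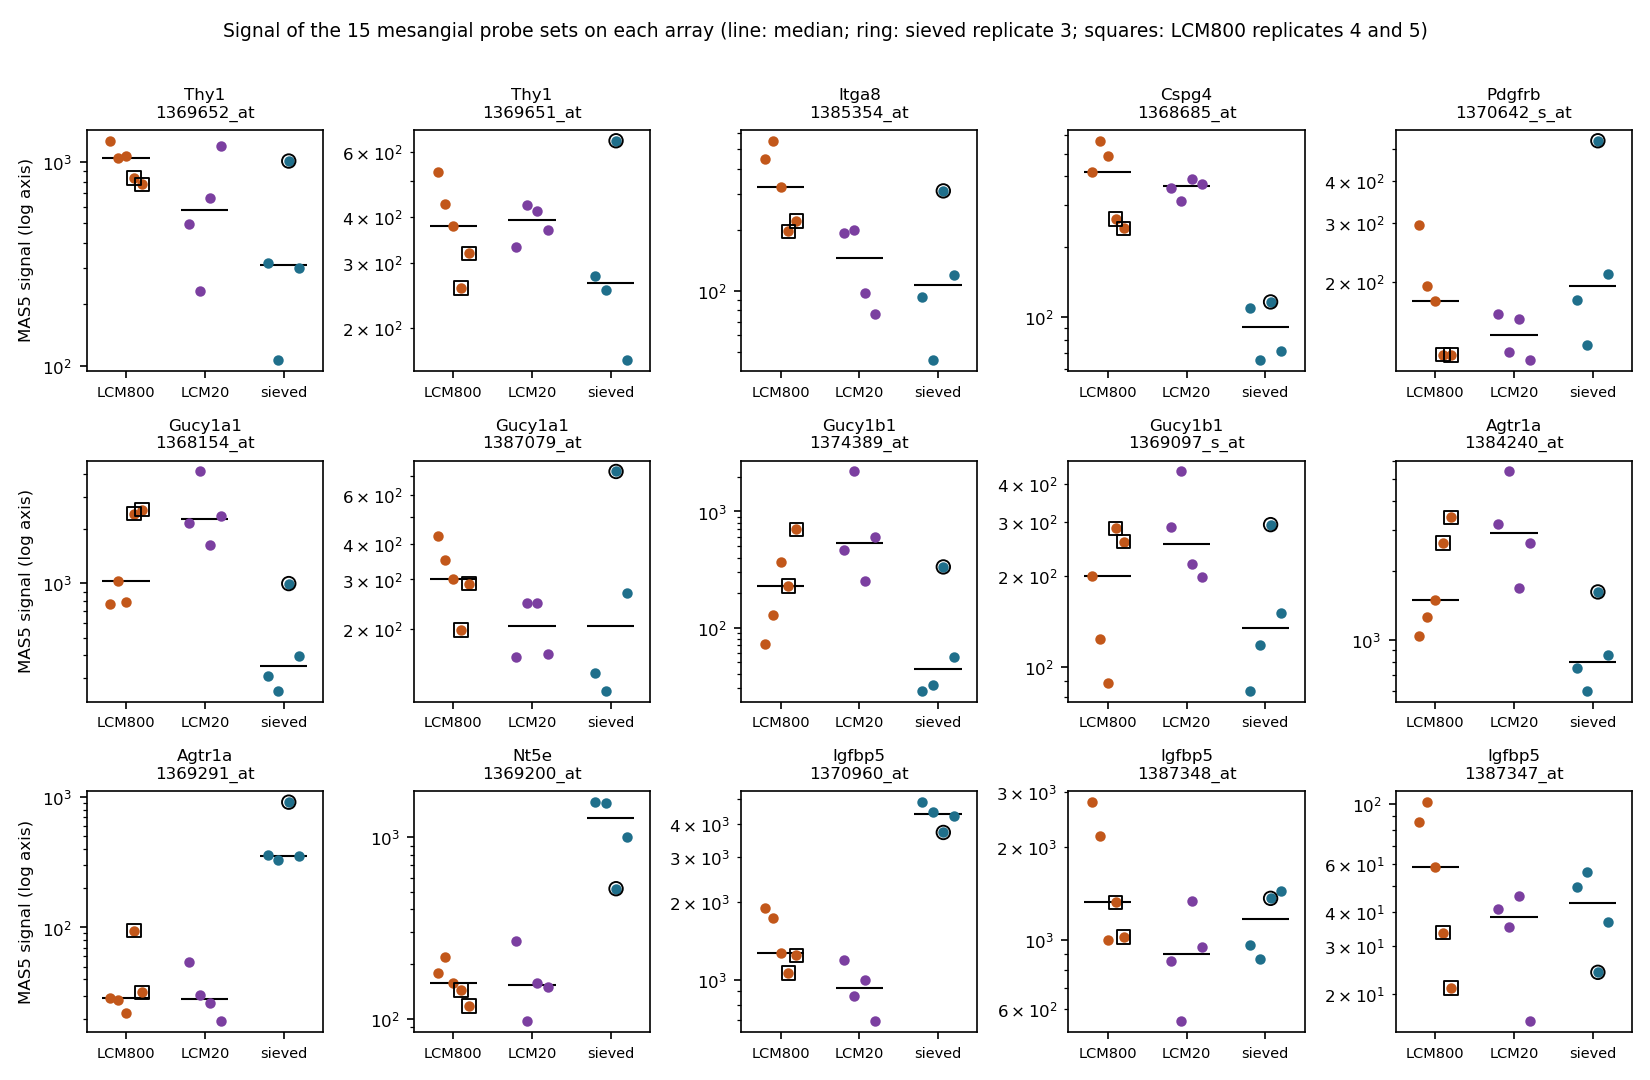
MAS5 signal of each of the 15 probe sets on each array, on a log axis, with LCM800, LCM20 and sieved arrays from left to right and the group median as a line. The ringed point is sieved replicate 3 and the squares are LCM800 replicates 4 and 5. Nt5e, Igfbp5 1370960_at and Agtr1a 1369291_at sat lower on every laser-captured array than on any sieved array, and Cspg4 sat higher.

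Thy1 is the surface antigen by which rat mesangial cells are targeted, and both of its probe sets were designed from the same sequence record. Probe set 1369652_at had signals of 1269, 1050, 1063, 833 and 775 in LCM800 and 493, 233, 667 and 1198 in LCM20, against 319.6, 106, 1009 and 302 in sieved glomeruli. All LCM800 arrays lay above 3 of the sieved arrays, sieved replicate 3 lay within the LCM800 range, and the LCM20 arrays were spread more widely. Thy1 rose by 1.38 ± 0.44 in LCM800 (adjusted p = 0.0152), and the LCM20 difference of 0.64 ± 0.46 was not called (adjusted p = 0.268). Leaving out sieved replicate 3 gave changes of 1.86 (adjusted p = 0.00117) and 1.11 (adjusted p = 0.0354). Without sieved replicate 2, the dimmest array, the LCM800 call was lost (change 0.98, adjusted p = 0.0692). It was also lost without LCM800 replicates 1 to 3 (1.11, adjusted p = 0.141).

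The other Thy1 probe set, 1369651_at, moved less. Its signals were 531, 434, 378, 257 and 318 in LCM800 and 331, 431, 414 and 368 in LCM20, against 276, 253, 643 and 164 in sieved glomeruli. The groups overlapped, and neither change was called (0.27 ± 0.27, adjusted p = 0.425, and 0.30 ± 0.29, adjusted p = 0.409). Both were called once sieved replicate 3 was left out, at 0.59 (adjusted p = 0.0419) and 0.62 (adjusted p = 0.0436).

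Itga8, the α subunit of the integrin that binds nephronectin and anchors mesangial cells in their matrix, gave 446, 549, 326, 196 and 220.4 in LCM800 and 192, 199.9, 97.7 and 76.5 in LCM20. In sieved glomeruli it gave 92.8, 45.4, 311 and 119.9. LCM800 replicates 1 to 3 were brightest, while LCM20 and sieved arrays overlapped. Itga8 rose by 1.07 ± 0.35 in LCM800 (adjusted p = 0.017), and its LCM20 difference of 0.09 ± 0.36 was not called (adjusted p = 0.853). The LCM800 call was lost without sieved replicate 2 (0.82, adjusted p = 0.0728) and without LCM800 replicates 1 to 3 (0.55, adjusted p = 0.289). LCM20 and LCM800 differed by -0.97 ± 0.35 (adjusted p = 0.178), so the call in a single group is no sign that the groups differ.

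Cspg4 encodes NG2, a surface proteoglycan of pericytes and mesangial cells. Its signals were 416, 567, 487, 262 and 239 in LCM800 and 355, 313, 388 and 372 in LCM20, against 109, 65.4, 116 and 71.8 in sieved glomeruli. Every laser-captured array was above every sieved array, including sieved replicate 3. Cspg4 rose by 1.52 ± 0.23 in LCM800 (adjusted p = 6.58e-05) and by 1.45 ± 0.24 in LCM20 (adjusted p = 0.000196), with mean signals 4.36-fold and 3.94-fold those of sieved glomeruli. It was called in both comparisons under each alternative in which it was tested, with adjusted p of at most 0.00272.

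Pdgfrb encodes the receptor for platelet-derived growth factor B, on which mesangial cells depend for their arrival in the glomerulus. Its only probe set, 1370642_s_at, gave 296, 194, 175, 121 and 121 in LCM800 and 160.5, 123, 154 and 117 in LCM20, against 177, 129, 529 and 211 in sieved glomeruli. The groups overlapped, and sieved replicate 3 was the brightest array of all. The differences were -0.31 ± 0.29 (adjusted p = 0.383) in LCM800 and -0.55 ± 0.31 (adjusted p = 0.157) in LCM20. Without that array they were 0.023 (adjusted p = 0.946) and -0.21 (adjusted p = 0.532). No alternative gave a call for Pdgfrb.

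Gucy1a1 and Gucy1b1 encode the α1 and β1 subunits of the guanylate cyclase that nitric oxide switches on in mesangial and smooth muscle cells. Gucy1a1 1368154_at had signals of 769, 1035, 786, 2426 and 2554 in LCM800 and 2160, 4147, 1620 and 2356 in LCM20, against 307, 255, 996 and 396 in sieved glomeruli. LCM20 lay above sieved on every array, and LCM800 overlapped it only at sieved replicate 3. Gucy1a1 rose by 1.50 ± 0.42 in LCM800 (adjusted p = 0.00762) and by 2.34 ± 0.44 in LCM20 (adjusted p = 0.000581). Without LCM800 replicates 4 and 5, which were brightest in that group, the LCM800 call was lost (0.91, adjusted p = 0.0507).

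Gucy1b1 1374389_at had the widest spread of the members. It gave 72.7, 127, 369.8, 228 and 702 in LCM800 and 462, 2212, 249.9 and 598 in LCM20. Sieved glomeruli gave 28.5, 32, 333 and 55.6, so that only sieved replicate 3 reached into the LCM20 range. Gucy1b1 rose by 2.29 ± 0.61 in LCM20 (adjusted p = 0.00655), and its LCM800 difference of 1.07 ± 0.58 was not called (adjusted p = 0.131). The LCM800 difference was 1.56 and was called without sieved replicate 3 (adjusted p = 0.034).

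The second probe sets of both cyclase subunits were flatter. Gucy1a1 1387079_at, made from the same record as the other, gave 429, 352, 300, 198 and 289.7 in LCM800 and 159, 248, 248 and 162 in LCM20, against 139.8, 121, 726 and 269 in sieved glomeruli. Gucy1b1 1369097_s_at gave 199, 124, 88.9, 287 and 259 in LCM800 and 291, 441, 219 and 199 in LCM20, against 83.8, 119, 295 and 150.5 in sieved glomeruli. In both the groups overlapped and none of the 4 differences was called, with adjusted p from 0.1 to 0.616. Without sieved replicate 3, Gucy1a1 1387079_at was called in LCM800 (0.67, adjusted p = 0.0428) and Gucy1b1 1369097_s_at in LCM20 (0.92, adjusted p = 0.0294).

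Agtr1a encodes the angiotensin II type 1a receptor, through which angiotensin II contracts mesangial cells. Its probe sets went opposite ways. Probe set 1384240_at gave 1036, 1252, 1487, 2630 and 3405 in LCM800 and 3201, 5392, 1681 and 2638 in LCM20, against 752, 600.1, 1614 and 856 in sieved glomeruli. LCM20 lay wholly above sieved glomeruli, though by little over sieved replicate 3. This probe set rose by 1.66 ± 0.41 in LCM20 (adjusted p = 0.00386), and its LCM800 difference of 0.94 ± 0.39 fell just short of a call (adjusted p = 0.0511). Of 25 alternatives that kept the probe set by itself, 9 called that difference and 16 did not, with values from 0.45 to 1.68. It was called with quantile normalization (0.93, adjusted p = 0.0446) and without sieved replicate 3 (1.21, adjusted p = 0.0195). It was not called with equal medians (0.82, adjusted p = 0.127), with the replicate block (0.71, adjusted p = 0.155) or without sieved replicate 2 (0.77, adjusted p = 0.149). The lowest value was that without LCM800 replicates 4 and 5 (adjusted p = 0.294), and the highest that without LCM800 replicates 1 to 3 (adjusted p = 0.00606).

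Agtr1a 1369291_at gave 28.7, 27.9, 22, 94.7 and 31.8 in LCM800 and 54.7, 30.2, 26.5 and 19.1 in LCM20, against 358, 329, 913 and 352 in sieved glomeruli. Every laser-captured signal was below every sieved one. The filter on low mean values had removed this probe set. In the fit with no filter it fell by 2.30 ± 0.27 in LCM800 (adjusted p = 1.19e-05) and fell by 2.40 ± 0.28 in LCM20 (adjusted p = 1.81e-05), where 17.6% and 17.0% of 15866 probe sets were lower. Rats have a second type 1 receptor gene of similar sequence, Agtr1b, and probes for these genes may share targets. Agtr1b itself had mean signals of 1042 in LCM800 and 3459 in LCM20, against 776 in sieved glomeruli, where it ranged from 136 to 2216. It rose in LCM20 (2.60 ± 0.63, adjusted p = 0.00373) and was not called in LCM800 (0.76 ± 0.60, adjusted p = 0.297). Without sieved replicate 3 both were called, at 3.29 in LCM20 (adjusted p = 0.000171) and 1.46 in LCM800 (adjusted p = 0.0256).

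Nt5e, the ecto-5′-nucleotidase CD73 that turns extracellular AMP into adenosine, had the largest fall among the 13 tested probe sets in both comparisons. Its signals were 178, 219, 157, 144 and 118 in LCM800 and 269.6, 96.7, 158 and 149.8 in LCM20, against 1560, 1548, 521 and 1004 in sieved glomeruli. The groups did not overlap, and sieved replicate 3 was the dimmest sieved array. Nt5e fell by 2.32 ± 0.29 in LCM800 (adjusted p = 1.24e-05) and fell by 2.33 ± 0.30 in LCM20 (adjusted p = 2.73e-05). Sieved mean signals were 7.09-fold those of LCM800 and 6.87-fold those of LCM20. In rat kidney, CD73 is also known on the brush border of the proximal tubule and on interstitial fibroblasts.

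Igfbp5 encodes a secreted protein that binds insulin-like growth factors. Its probe set 1370960_at gave 1894, 1740, 1267, 1063 and 1242 in LCM800 and 1187, 865, 992 and 688 in LCM20, against 4877, 4451, 3721 and 4316 in sieved glomeruli. The sieved arrays were close to each other and all far above the laser-captured ones. Igfbp5 fell by 1.57 ± 0.22 in LCM800 (adjusted p = 3.86e-05) and fell by 2.16 ± 0.23 in LCM20 (adjusted p = 5.63e-06). With the mean of its probe sets in place of each, its LCM800 difference was -0.32 and was not called (adjusted p = 0.214). The LCM20 difference in that setting was -0.87 and stayed called (adjusted p = 0.00577).

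The other Igfbp5 probe sets share a sequence record and did not follow. Probe set 1387348_at gave 2780, 2155, 1003, 1321 and 1021 in LCM800 and 858, 546, 1336 and 949 in LCM20, against 967, 866, 1362 and 1443 in sieved glomeruli. Its groups overlapped, and neither its LCM800 difference of 0.41 ± 0.32 nor its LCM20 difference of -0.34 ± 0.33 was called (adjusted p = 0.292 and 0.421). Probe set 1387347_at, removed by the filter, ranged from 21.1 to 102 in LCM800 and from 15.9 to 45.8 in LCM20, against 24.1 to 56.4 in sieved glomeruli.

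**Figure D2:**
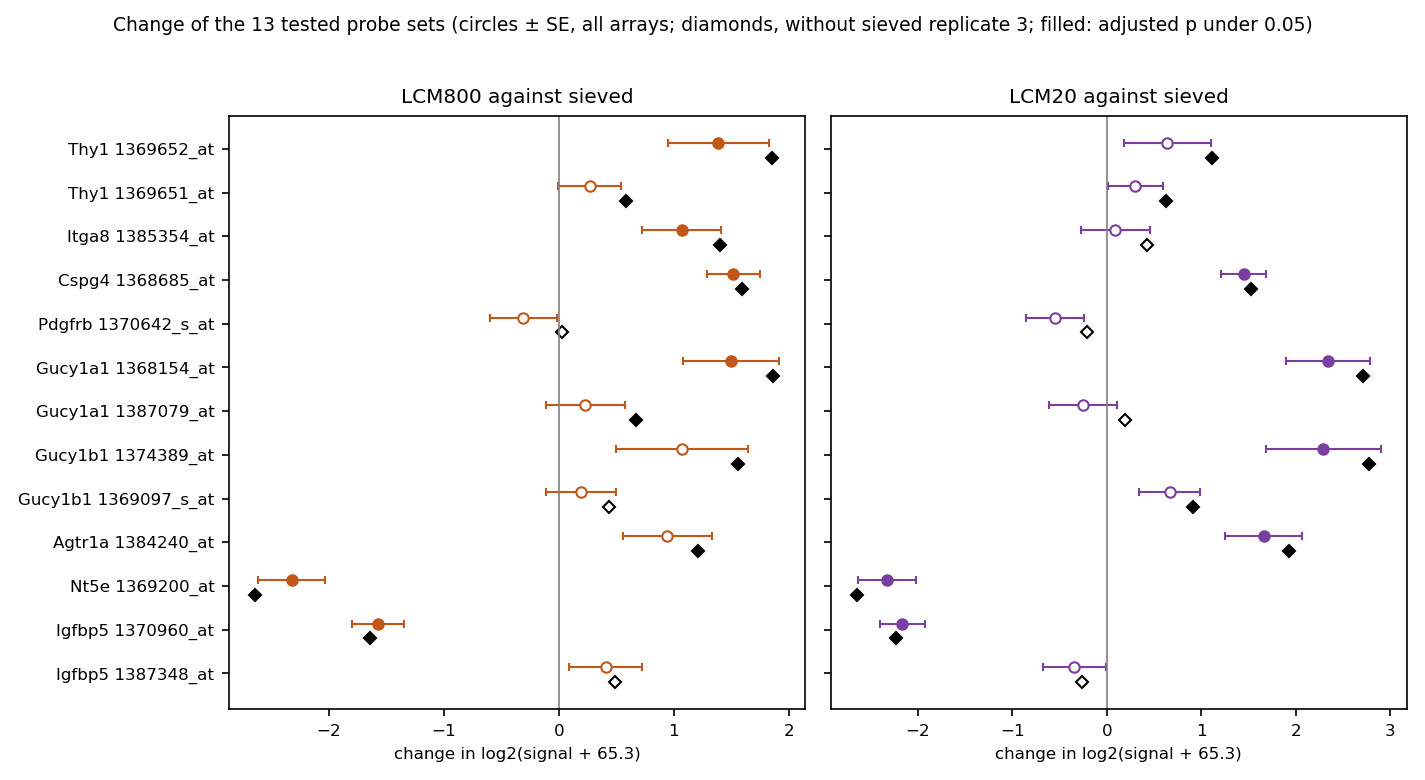
Change in log2(signal + 65.3) of the 13 tested probe sets in LCM800 (left panel) and LCM20 (right panel), each against sieved glomeruli. Circles with bars are estimates ± SE over all arrays, diamonds are estimates without sieved replicate 3, and filled symbols mark an adjusted p under 0.05. Nt5e lay at -2.32 and -2.33, Igfbp5 1370960_at at -1.57 and -2.16, Cspg4 at 1.52 and 1.45, and Thy1 1369652_at moved to 1.86 and 1.11 without that array.

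Of the 9 genes, 5 had more than 1 probe set, which allowed a test of whether probe sets of the same gene changed equally. The change of Agtr1a 1384240_at exceeded that of 1369291_at by 3.24 in LCM800 and by 4.06 in LCM20. For Gucy1a1 1368154_at over 1387079_at the excess was 1.27 and 2.59, and for Thy1 1369652_at over 1369651_at it was 1.12 and 0.34. Gucy1b1 1374389_at exceeded 1369097_s_at by 0.88 and 1.62. Igfbp5 1370960_at minus 1387348_at gave -1.98 in LCM800 and -1.82 in LCM20. Exact two-sided permutation tests over samples, 21 in all, gave no adjusted p under 0.0667. The smallest p that the designs allow is 0.0159 for 5 arrays against 4 and 0.0286 for 4 against 4. Of the tests against sieved glomeruli, 9 reached that bound, and their adjusted p was still 0.0667 at the lowest. The lack of calls therefore does not show that probe sets of the same gene changed equally.

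**Figure D3:**
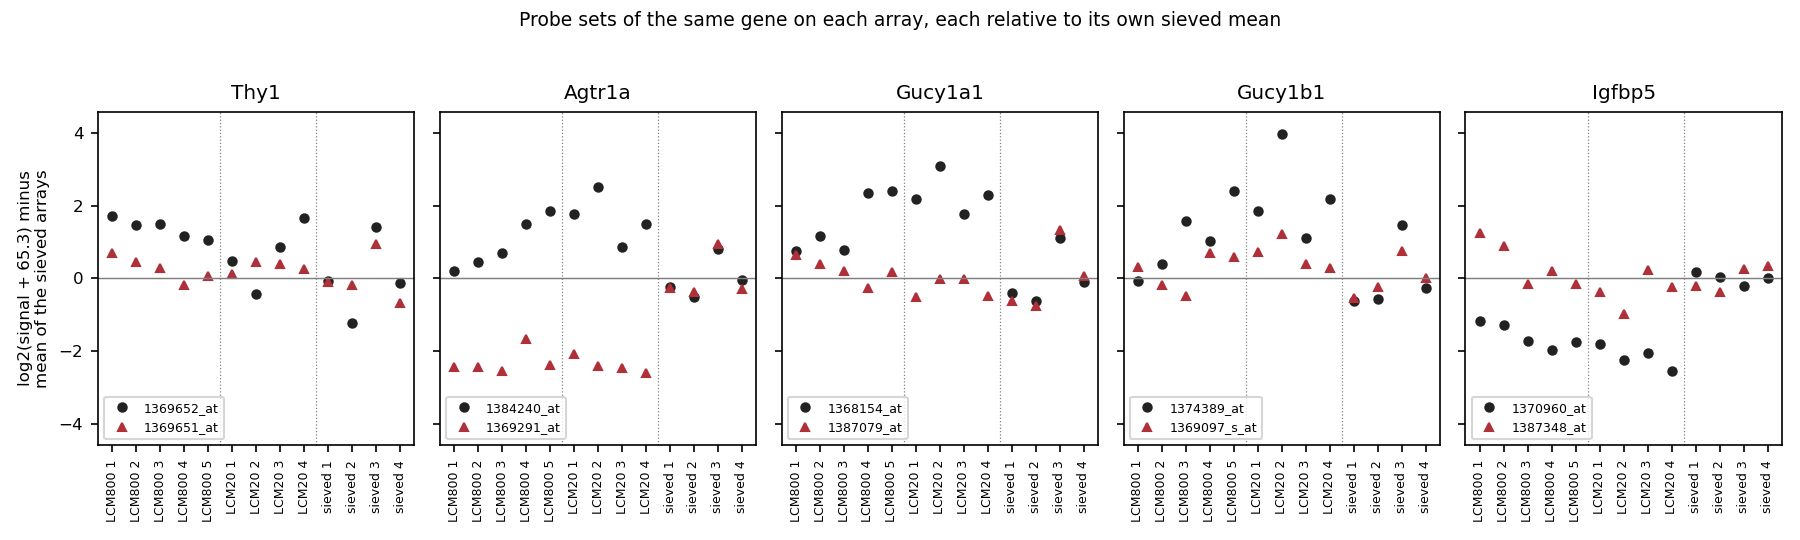
Log2(signal + 65.3) of the probe sets of the same gene on each array, each minus its own mean over the sieved arrays, with dotted lines between LCM800, LCM20 and sieved arrays. Black circles and red triangles are the 2 probe sets named in each panel. Those of Agtr1a separate on every laser-captured array, while for Thy1 1369651_at lay above 1369652_at on LCM20 replicate 2. Igfbp5 1387347_at is not drawn.

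The position of RNA that an array reads may bear on such pairs, and control probe sets for β-actin and GAPDH give measures of it that differed. For β-actin, the log2 signal of the 3′ probe set minus that of the 5′ probe set was 2.80, 3.54, 4.01, 1.78 and 1.71 in LCM800 and 1.33, 1.52, 2.06 and 2.29 in LCM20, against 0.53 to 0.57 in sieved glomeruli. LCM800 replicates 1 to 3 had the largest of these values. For GAPDH it was 1.24, 1.11, 1.08, 2.02 and 0.68 in LCM800 and 0.85, -0.22, 0.85 and 3.06 in LCM20, against 0.36 to 0.66 in sieved glomeruli. There LCM20 overlapped the other groups, and the largest values were those of LCM20 replicate 4 and LCM800 replicate 4. No positions of the member probe sets were used, and the part of this in the results was not tested.

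Markers of other cells moved between the same groups. Of 26 proximal tubule markers, 24 were lower and 2 higher in LCM800, and 24 were lower and none higher in LCM20, beside 19.8% lower and 32.3% higher of 8081 genes in LCM800 and 18.5% lower and 27.0% higher in LCM20. Each gene stands for its brightest probe set. The mean log2 of this list lay between 9.36 and 9.90 in LCM800 and between 8.88 and 10.2 in LCM20, against 11.5 to 12.6 in sieved glomeruli. Of 14 markers of the loop, distal tubule and collecting duct, 9 were lower and 1 higher in LCM800, and 12 were lower and none higher in LCM20. The higher one was Aqp2, the water channel of the collecting duct, with mean signals of 9584 in LCM800 and 3158 in LCM20, against 4278 in sieved glomeruli (LCM800 change 1.32, adjusted p = 0.0131, and 0.98, adjusted p = 0.0533, without sieved replicate 3). The mean of the 14 markers ran from 9.30 to 9.81 in LCM800 and from 8.64 to 9.37 in LCM20, against 10.2 to 11.4 in sieved glomeruli. No marker was listed at 0 on any array, but MAS5 signals of dim probe sets are also above 0, so this does not show that tubular RNA was present. Some tubular markers were bright on every laser-captured array, and others were dim. The lowest signals of Pck1 were 14190 in LCM800 and 13370 in LCM20, and those of Slc34a1 were 1978 and 1031. The highest signals of Gldc were 80.0 and 70.7. Pck1 and Cyp2d4 were the 2 higher proximal tubule markers in LCM800. The source of these signals was not tested. Nt5e and Igfbp5 1370960_at fell in the same comparisons, and the part of tubular RNA in their falls was not tested.

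Glomerular marker lists were mixed. Of 15 podocyte markers, 4 were higher and 5 lower in LCM800, and 5 higher and 3 lower in LCM20. Their mean log2 ran from 10.5 to 10.8 in LCM800 and from 10.5 to 10.96 in LCM20, against 10.0 to 11.2 in sieved glomeruli. Of 15 endothelial markers, 5 were higher and 2 lower in LCM800, and 6 higher and 3 lower in LCM20. The mean of the 9 mesangial members, each by its brightest probe set over all arrays, ran from 9.16 to 9.36 in LCM800. It ran from 9.01 to 9.47 in LCM20. In sieved glomeruli it was 8.44 to 8.78 on 3 arrays and 9.54 on replicate 3. That choice leaves out the flatter or falling probe sets of Thy1, Gucy1a1, Gucy1b1 and Agtr1a, and the uncalled ones of Igfbp5, whose brightest fell. In sieved glomeruli the Gucy1b1 probe set used was the dimmer one (7.18 against 7.75). Smooth muscle and juxtaglomerular markers, which mesangial cells partly share, gave 3 higher and 1 lower of 8 in LCM800 and 2 higher and 2 lower in LCM20. Leukocyte markers gave 5 higher and 1 lower of 11 in LCM800 and 4 higher and 1 lower in LCM20. Parietal epithelial markers gave 1 higher and 4 lower of 8 in LCM800 and 0 higher and 5 lower in LCM20. Without sieved replicate 3 the podocyte counts were 6 higher and 3 lower in LCM800, and 7 higher and 2 lower in LCM20. Of the endothelial markers, 8 were then higher in each comparison, with 2 lower in LCM800 and 3 in LCM20. Beside these, 30.6% of all genes were higher and 19.5% lower in LCM800, and 26.1% and 18.6% in LCM20. Among the podocyte markers, with all arrays, Nphs1, Synpo, Plce1 and Rhpn1 rose in both comparisons, while Ptpro, Actn4 and Vegfa fell in both. Nephrin (Nphs1) had mean signals of 4725 in LCM800 and 5274 in LCM20, against 2301 in sieved glomeruli, and α-actinin 4 (Actn4) had 1655 in LCM800 and 1600 in LCM20, against 3794 in sieved glomeruli.

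**Figure D4:**
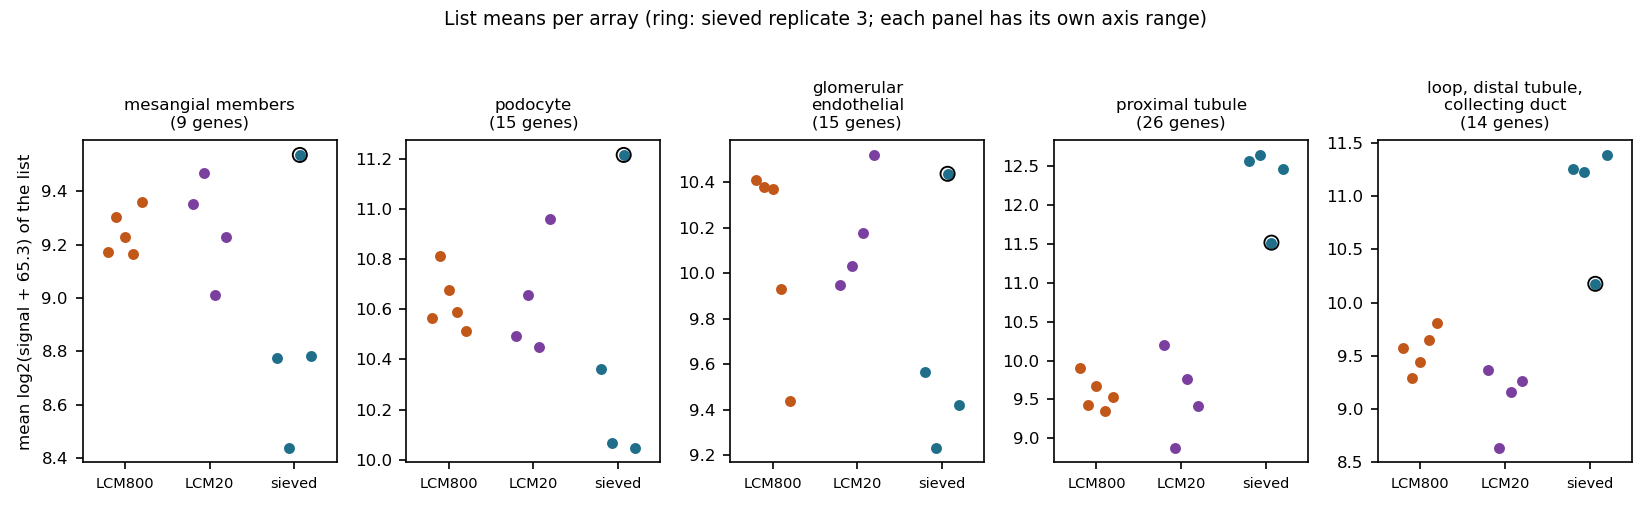
Mean log2(signal + 65.3) per array of the 9 mesangial members and of marker lists of other kidney cells, with LCM800, LCM20 and sieved arrays from left to right, and sieved replicate 3 ringed. Each gene is shown by its brightest probe set over all arrays, and each panel has its own axis range. The ringed array is the highest sieved point for the mesangial, podocyte and endothelial lists and the lowest for both tubular lists.

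Other genes of the pathways in which the members act were counted from lists written for each pathway, by the same gene-level background. In the platelet-derived growth factor pathway around Pdgfrb, 3 of 7 tested genes were higher in LCM800 and 2 in LCM20, and none was lower. Plcg1, the phospholipase that the receptor activates, rose in LCM800 (1.20 ± 0.34, adjusted p = 0.00741). Ptpn11, the phosphatase SHP2, rose in both (0.81 and 1.15), and so did the adaptor Grb2 (0.62 and 0.51).

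Around the guanylate cyclase, 6 of 10 genes of the nitric oxide and cyclic GMP pathway were higher in LCM800 and 3 in LCM20, with none lower. The median change of the list was 0.84 in LCM800 and 0.61 in LCM20, beside 0.22 and 0.18 over all genes. Pde2a, a cyclic GMP-stimulated phosphodiesterase, had mean signals of 2590 in LCM800 and 2193 in LCM20, against 721 in sieved glomeruli. It rose by 1.83 ± 0.26 (adjusted p = 3.74e-05) and 1.61 ± 0.27 (adjusted p = 0.000228). Vasp, a substrate of cyclic GMP-dependent kinase, rose by 1.76 ± 0.31 in LCM800 (adjusted p = 0.000234), and the inducible synthase Nos2 rose by 2.04 ± 0.44 in LCM20 (adjusted p = 0.00146). Without sieved replicate 3 the counts were 4 in each comparison, beside 30.6% higher and 19.5% lower of all genes in LCM800 and 26.1% and 18.6% in LCM20.

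In the renin and angiotensin list around Agtr1a, 2 of 6 genes were higher and 3 lower in LCM800, and 3 were higher and 2 lower in LCM20. Rgs2, which damps signals of the angiotensin receptor, rose by 2.05 ± 0.37 in LCM800 (adjusted p = 0.000298) and by 2.44 ± 0.39 in LCM20 (adjusted p = 0.000141). Mas1, a receptor for angiotensin fragments, rose by 0.82 in LCM800 and by 0.84 in LCM20. The peptidase Mme fell (-2.31 in LCM800 and -2.28 in LCM20), and so did Agtrap, which binds the receptor and lowers its surface level (-1.71 and -2.08). Mme is known on the proximal tubule brush border as well as on podocytes.

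Around Nt5e, 3 of 16 genes of the nucleotide and adenosine list were higher and 4 lower in LCM800, and 3 higher and 6 lower in LCM20. Alpl, an alkaline phosphatase that also splits AMP, had mean signals of 60.5 in LCM800 and 25.2 in LCM20, against 2624 in sieved glomeruli, and fell in both (-4.25 ± 0.37, adjusted p = 5.25e-07, and -4.67 ± 0.39, adjusted p = 6.15e-07). Entpd5, a nucleoside diphosphatase, fell likewise (-2.68 and -2.78). Adenosine deaminase (Ada) rose by 1.26 in each, and the adenosine receptor Adora1 rose by 1.15 in LCM800 and by 0.85 in LCM20.

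The insulin-like growth factor list around Igfbp5 gave 2 higher and 3 lower of 12 in LCM800, and 1 higher and 4 lower in LCM20. The binding protein Igfbp6 rose by 0.78 in LCM800 and by 0.73 in LCM20, and the growth factor Igf2 rose by 0.82 in LCM800. Igfbp1 fell in both (-0.96 and -1.24), and so did the receptor Igf2r (-0.995 and -1.03) and the adaptor Irs2 (-0.61 and -1.50). In the list around Itga8, which holds its β1 partner, ligands and adhesion proteins but also subunits of other integrins (Itga1, Itga3, Itga6 and Itgb5), 1 of 11 was higher and 4 lower in LCM800, and 2 higher and 3 lower in LCM20. Osteopontin (Spp1), a ligand of the α8 integrin that was also on the distal tubule list, fell in both (-3.06 and -2.67). Of the other subunits, Itga1 fell (-1.48 and -1.66), Itga3 rose by 1.23 and 0.76, and Itgb5 rose by 0.97 in LCM20. Without sieved replicate 3, 3 genes of the integrin list were higher in LCM800.

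Proteoglycans related to NG2 gave no rise among 11 genes, with 4 lower in LCM800 and 5 in LCM20. Syndecan 2 (Sdc2) fell in both (-2.44 in LCM800 and -1.73 in LCM20). The matrix proteoglycan decorin (Dcn, -2.35 and -2.65) and glypican 3 (Gpc3, -1.49 and -2.33) did so too. Of 18 other genes associated with mesangial cells and pericytes, 8 were higher in LCM800 and 6 in LCM20, with none and 1 lower. Ccn2, the connective tissue growth factor, had mean signals of 9529 in LCM800 and 13570 in LCM20, against 3359 in sieved glomeruli, and rose by 1.50 ± 0.39 (adjusted p = 0.00441) and by 2.15 ± 0.41 (adjusted p = 0.000576). The myosin light chain Myl9 rose by 1.03 in LCM800 and Fhl2 by 1.13 in LCM20. Plvap, a protein of endothelial diaphragms, fell by 1.88 in LCM20. The median of this list was 0.56 in LCM800 and 0.50 in LCM20. In LCM20 against LCM800 no gene of the 8 lists was called, beside 0.0742% higher and 0.0619% lower of all genes.

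Setting LCM20 against LCM800 shows how far the members depend on LCM800 replicates 4 and 5. With all arrays the largest differences were 1.22 ± 0.58 for Gucy1b1 1374389_at (adjusted p = 0.286) and -0.97 ± 0.35 for Itga8. Without replicates 4 and 5, Gucy1a1 1368154_at (1.43, adjusted p = 0.0127) and Agtr1a 1384240_at (1.21, adjusted p = 0.0246) were higher in LCM20. Itga8 (-1.32, adjusted p = 0.0174), Igfbp5 1370960_at (-0.77, adjusted p = 0.0229) and Igfbp5 1387348_at (-0.997, adjusted p = 0.0445) were lower. Those 2 and 3 of 13 stood beside 11.4% higher and 11.9% lower of all probe sets. LCM800 replicates 4 and 5 correlated with LCM20 arrays at 0.855 to 0.907, against 0.651 to 0.860 for replicates 1 to 3. Leaving out the 2 LCM800 arrays most like LCM20 widens the contrast, so these calls are no support for a difference between the groups.

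The profiles of 3 members were set beside those of 8042 other genes over the 13 arrays, by the root mean square difference of log2 values after each gene was centred on its own mean. The arrays share their groups and their standing apart, so this is a description. Nearest to Thy1 1369652_at were Cygb (0.39), Spsb1 (0.41) and Slc4a1ap (0.42), where the SD of Thy1 itself over the arrays was 0.93. Among the other members, Cspg4 ranked 447 and Itga8 ranked 616 for Thy1. Nearest to Nt5e were Akr7a2 (0.21), Dcn (0.24) and Slco1a3 (0.25), with an SD of 1.20 for Nt5e, and Igfbp5 ranked 140. Nearest to Pdgfrb were Plxnd1 (0.19), Kcnab1 (0.23) and Ppp2r5c (0.24), with an SD of 0.48. The remaining members ranked from 2732 to 7824 for Thy1, from 2616 to 7978 for Nt5e and from 2807 to 7929 for Pdgfrb.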

How the data were processed

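RNA of rat glomeruli was measured on 13 one-colour Affymetrix arrays. The deposited values are linear signal intensities, 1 per probe set and array, and the submitters' processing notes name MAS5. Version, scaling and annotation used by the authors are not given in the sources used here. The mean of each array with 2% of values at each end left out was 499.9, so no further normalization between arrays was applied. Median signals per array ran from 236 to 321. Precision is limited by how few arrays there are.

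Gene symbols came from the probe table given with the data, which named 1 symbol for 12783 probe sets, several for 312 and none for 2771. A gene with several probe sets was represented, in lists, by the brightest over all arrays. Values were taken as log2(signal + 65.29), the 20th percentile of all signals. After removal of 57 control probe sets and the dimmest 30% by mean log2, 11106 were tested. A single limma model (version 3.58.1, under R 4.3.3) held the 3 groups and no covariate, with eBayes set to follow intensity, and p-values were adjusted by Benjamini-Hochberg across everything tested, at 0.05. The script was tested on simulated data. Probe sets of the same gene were compared by exact permutation tests (scipy 1.17.1). Samples were not paired by replicate number in the model. Deviations of same-numbered arrays correlated at -0.24 to 0.23, which shows no pairing but cannot exclude it, as a few outlying arrays weigh heavily in them. Promoter windows came from RefSeq tables of GRCr8 and were searched on both strands.

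The members, the lists and the tests were chosen with earlier results of these data known, so p-values describe these arrays and are not independent support. All members are named, with the 2 largest called changes in each direction of each pathway list against sieved glomeruli; Agtr1b, Mme, Nphs1 and other genes outside the members serve as context. Alternatives were quantile normalization, equal medians, other pseudocounts and filters, no trend, array weights, a replicate block, 2 groups only, gene means and arrays left out. The unfiltered fits with an array left out or a larger pseudocount were added after seeing the data.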

Additional observations from a re-analysis of the deposited data

Results flagged for a closer look

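In each group of 4 or 5 arrays the highest and lowest values of every member probe set were compared with their nearest neighbour, which chance alone would single out in about 1 of 20 groups. Of 45 groups of values, 2 had a single array far from the others, both for Agtr1a 1369291_at, the angiotensin receptor probe set that fell in laser-captured glomeruli. LCM800 replicate 4 had a signal of 94.7 (7.32 on the log2 scale), where the nearest other LCM800 array had 31.8. Sieved replicate 3 had a signal of 913 (9.93 on the log2 scale), where the nearest other sieved array had 358. In the fit with no filter, leaving out sieved replicate 3 gave changes of -1.99 in LCM800 (adjusted p = 6.20e-06) and -2.08 in LCM20 (adjusted p = 7.20e-06). Leaving out LCM800 replicate 4 gave -2.46 in LCM800 (adjusted p = 9.09e-06).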

How the results depend on the processing

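Over the single probe sets, 970 alternative values were computed, of which 903 kept their direction and side of the threshold, 24 newly passed it, 6 no longer did, and 37 turned sign. The cause of these moves was not tested. Some alternatives, such as no filter, no trend or an array of the third group left out, keep the estimate itself unchanged. There the direction could not turn, so the count of 903 is no measure of robustness. Dropping the dimmest 60% of probe sets meant that fewer were tested, and 2 member probe sets were higher and 1 lower in both LCM800 and LCM20 against sieved, with 3504 and 3259 called over all genes. Array weights gave 8 higher member probe sets, of 6 genes, in LCM800. Leaving out 1 array at a time gave 2 (without sieved replicate 2) to 8 (without sieved replicate 3) higher member probe sets in LCM800, and 4 to 7 in LCM20 (7 without sieved replicate 3), with the 2 lower ones kept in number. In LCM20 against LCM800, leaving out LCM800 replicates 4 and 5 gave 2 member probe sets higher, 3 lower and 2581 probe sets called over all genes. The last count was 17 in the reported fit, 10 with no pseudocount, 10 with no filter, 859 with array weights, 0 with only the 2 groups compared, and 0 to 502 with 1 array left out (502 without LCM800 replicate 4, 195 without replicate 5).

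Same-numbered arrays were not shown to be paired. The replicate block gave 0 called probe sets over all genes in LCM20 against LCM800, LCM800 replicate 5 being alone in its block, and a Thy1 1369651_at difference of -0.014 there. It changed no member's call.

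Values that turned sign were all uncalled, apart from the called LCM20 rise of Agtr1a 1384240_at. Against sieved, the mean of both Agtr1a probe sets gave -0.68 in LCM800 and -0.37 in LCM20. Without LCM800 replicates 1 to 3, LCM800 differences were -0.052 for Gucy1a1 1387079_at and -0.052 for Thy1 1369651_at, and without replicates 4 and 5 Gucy1b1 1369097_s_at gave -0.12. Array weights gave 0.076 for Pdgfrb in LCM800 and 0.25 for Gucy1a1 1387079_at in LCM20. With 1 array left out, Gucy1a1 1387079_at ran from -0.029 to 0.67 in LCM800 and from -0.51 to 0.19 in LCM20, Pdgfrb from -0.51 to 0.023 in LCM800, and Itga8 from -0.16 to 0.43 in LCM20.

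In LCM20 against LCM800, leaving out LCM800 replicates 1 to 3 gave -0.014 for Agtr1a 1384240_at, 0.41 for Cspg4, -0.039 for Gucy1a1 1368154_at, 0.21 for Nt5e and 0.12 for Pdgfrb. Quantile normalization gave 0.0052 for Cspg4 and 0.12 for Nt5e, equal medians 0.039 and 0.082, and 4 times the pseudocount 0.0074 for Nt5e. Thy1 1369651_at gave -0.046 with array weights and -0.18 without LCM800 replicates 4 and 5. Agtr1a 1369291_at gave 0.065 with no filter and LCM800 replicate 4 left out. With 1 array left out, Cspg4 ran from -0.20 to 0.062, Nt5e from -0.19 to 0.16 and Thy1 1369651_at from -0.077 to 0.15.

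With 4 or 5 arrays per group, 1 of them far from the rest in sieved glomeruli and 2 in LCM800, calls near the threshold rest on single arrays. Signals near the pseudocount of 65.3 carry compressed changes.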
